A study of Mus musculus with 8 samples.

Results

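The genes described here encode the AP-1 transcription factors: 4 FOS genes (Fos, Fosb, Fosl1 and Fosl2), 3 JUN genes (Jun, Junb and Jund) and 3 BATF genes (Batf, Batf2 and Batf3), 10 of 21631 protein-coding genes. Their loci were taken as the gene body with 20 kb on each side on mm10, and every interval of H3K27ac, a histone mark of active promoters and enhancers, that touched a locus was counted. This gave 155 of 253423 intervals in the list from EnPGC-1-treated cells and 58 of 81522 in the list from DMSO-treated cells. The cells were CD8+ T cells from lymph node and spleen of C57BL/6 mice. All were stimulated with antibodies to CD3 and CD28, and all were kept for 48 h with either EnPGC-1, which the labels class among PIPs, or its vehicle DMSO. ChIP with an H3K27ac antibody was made on 2 EnPGC-1 samples and 2 DMSO samples, and the other samples were 1 input of EnPGC-1-treated cells, 1 input of DMSO-treated cells and 2 IgG samples of DMSO-treated cells. There was 1 deposited list per treatment, so the treatments could not be tested against each other. Values given with EnPGC-1 and with DMSO are those of the 1 list of that treatment, and the sequencing depth behind each is unknown here. A lower value in a list can mean fewer cells with the mark or less of the mark per cell, which cannot be told apart.

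AP-1 proteins bind DNA as pairs through a basic leucine zipper. FOS proteins need a partner, usually a JUN protein, whereas JUN proteins can also pair with each other. BATF proteins lack an activation domain of their own, pair with JUN proteins and act with IRF4 at composite sites in T cells. T cell receptor and costimulatory signals raise AP-1 through the MAP kinases, and AP-1 acts with NFAT at cytokine genes such as Il2.

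The starts of 8 members were given by the RefSeq promoter table (GRCm38.p6, the coordinates of mm10), which holds 250 bases before to 50 bases after each start. The starts of Fosl1 and Batf2 are not used here. The promoters of 5 members are shown as examples, 5′ to 3′ on the strand of the gene. Both lists marked the starts of Fos and Jun within 1 kb. Fosl2, Junb and Batf are among the 6 members whose starts the EnPGC-1 list alone marked. Marked means that an interval lay within 1 kb of the start, and such an interval need not cover the window shown. Capitals mark the motifs searched, on either strand, so that the GC box also appears as its reverse complement.
Fos promoter, chr12:85473640-85473939, + strand: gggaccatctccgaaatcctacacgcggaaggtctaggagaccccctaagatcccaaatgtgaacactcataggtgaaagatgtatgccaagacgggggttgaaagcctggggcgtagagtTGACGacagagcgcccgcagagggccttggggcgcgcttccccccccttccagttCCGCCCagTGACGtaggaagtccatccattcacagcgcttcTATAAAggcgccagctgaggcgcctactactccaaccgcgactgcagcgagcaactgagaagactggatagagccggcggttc
Jun promoter, chr4:95052173-95052472, - strand: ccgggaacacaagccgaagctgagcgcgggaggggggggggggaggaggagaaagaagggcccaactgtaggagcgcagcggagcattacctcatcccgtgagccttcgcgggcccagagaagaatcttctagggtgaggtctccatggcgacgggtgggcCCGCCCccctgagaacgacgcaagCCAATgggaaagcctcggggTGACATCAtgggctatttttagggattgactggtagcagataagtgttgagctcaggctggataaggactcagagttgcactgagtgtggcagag
Fosl2 promoter, chr5:32136222-32136521, + strand: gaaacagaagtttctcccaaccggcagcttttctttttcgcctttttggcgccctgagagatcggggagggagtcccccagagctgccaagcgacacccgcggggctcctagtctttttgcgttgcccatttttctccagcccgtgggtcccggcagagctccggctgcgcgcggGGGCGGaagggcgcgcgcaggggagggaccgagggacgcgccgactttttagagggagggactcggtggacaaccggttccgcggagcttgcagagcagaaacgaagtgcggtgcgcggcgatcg
Junb promoter, chr8:84978699-84978998, - strand: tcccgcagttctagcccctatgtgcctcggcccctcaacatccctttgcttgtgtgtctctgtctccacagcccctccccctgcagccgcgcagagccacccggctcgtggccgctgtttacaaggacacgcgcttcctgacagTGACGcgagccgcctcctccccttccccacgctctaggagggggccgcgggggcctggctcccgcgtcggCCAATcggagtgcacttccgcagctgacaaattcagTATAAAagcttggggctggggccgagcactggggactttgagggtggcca
Batf promoter, chr12:85686470-85686769, + strand: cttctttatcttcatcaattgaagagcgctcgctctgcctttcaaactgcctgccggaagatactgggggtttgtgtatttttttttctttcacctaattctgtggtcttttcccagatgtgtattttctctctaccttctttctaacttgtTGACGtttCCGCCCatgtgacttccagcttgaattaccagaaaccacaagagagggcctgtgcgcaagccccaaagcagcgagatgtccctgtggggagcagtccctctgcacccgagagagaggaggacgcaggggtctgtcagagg
The motifs were TGACG (the core of a cAMP response element), TGACGTCA (the full element, which contains the core on both strands), TGACATCA (a variant of it), TGAGTCA (the AP-1 site), GGGCGG (the GC box), CCAAT (the CCAAT box), TATAAA (the TATA box) and the CArG box of serum response. The core, the variant and the TATA box were added after the sequences had been seen. The core was in 4 of the 8 member promoters (Fos, Fosb, Junb and Batf), and in 23.8% of 21045 promoters of the same length. The variant TGACATCA was in Jun, where it lay from base -45 to -38 of the start, and in 2.99% of all promoters. The AP-1 site, the full element and the CArG box were in 0 of the 8 windows, and in 4.69%, 2.26% and 1.54% of all promoters. GC boxes were in 6 of the 8 and in 46.7% of all, CCAAT boxes in 2 (Jun and Junb) and 38.5%, and matches to TATAAA in 2 (Fos and Junb) and 12.7%. The TATAAA of Fos lay from base -33 to -28, and that of Junb from 0 to 5, on the given start itself. These are matches of letters in windows, and say nothing of binding. Motifs more than 250 bases before a start were not searched, so a count of 0 does not mean that a gene lacks the motif.

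At each AP-1 gene, EnPGC-1-treated cells had more bases listed as acetylated than the vehicle had. The ratio ranged from 2.68 at Junb to 6.32 at Fosb, and the ratio of the summed bases and the median ratio lay near the excess of the whole lists. All 10 members had an interval in both lists, as had 80.7% of all protein-coding genes. At all 10 the EnPGC-1 list covered at least 2 times the bases of the DMSO list, which held for 86.6% of all genes. A gene with bases with EnPGC-1 and 0 with DMSO counts here, whereas ratios are given only for genes with DMSO bases. Summed over the loci, 111944 bases were covered with EnPGC-1 and 27660 with DMSO, a ratio of 4.05, beside 4.00 for the whole lists (165 and 41.3 Mb). The ratio lay above that of the whole lists at 5 of the 10 members (Fosb, Fosl2, Jun, Jund and Batf2) and at 48.9% of all genes. The median ratio was 3.99 over the members and 3.71 over the 17548 genes with a DMSO interval. The loci themselves were more densely covered than most in both lists: the median share of a locus covered was 21.8% with EnPGC-1 and 4.64% with DMSO, beside 8.37% and 1.99% over all genes. Among the 10038 genes with loci of the same range of lengths, chosen as a further comparison after the values were seen, the medians were 13.6% and 3.22%. Covered lengths grow with the size of a list. When the EnPGC-1 list was reduced to its 81522 highest-scoring intervals, the number in the DMSO list, 2 members (Jun and Jund) had at least 2 times the bases, beside 34.3% of all genes. Fos lay just below, with a ratio of 1.99. More bases were then covered with EnPGC-1 at 8 members, beside 65.9% of all genes, and with DMSO at 2 (Fosl2 and Batf), beside 23.3%. Intervals at the lowest score kept, 4.21274, were kept only in part, wider ones first. Those left out include an interval of 759 bp at Fosl2 and another of 666 bp at Batf2. The order at Fosl2 and the count of members at 2 times depend on this rule. The median ratio was then 1.59, and 1.65 for the whole lists.

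**Figure D1:**
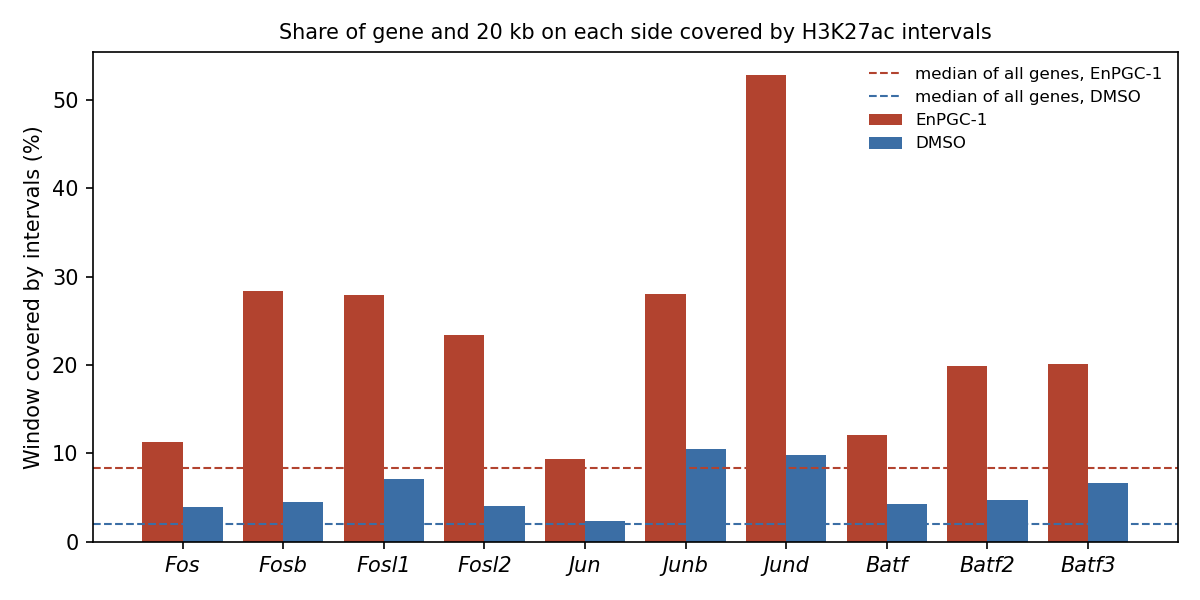
Share of each locus (gene body and 20 kb on each side) covered by H3K27ac intervals, in percent, for the EnPGC-1 list (left bar of each pair) and the DMSO list (right bar), 1 list per treatment with no error. Dashed lines are the medians over all protein-coding genes, 8.37% and 1.99%. Jund stands highest in the EnPGC-1 list at 52.8%, and Jun lowest in both lists at 9.35% and 2.32%.

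The JUN loci were covered for 30.0% by the EnPGC-1 list and 7.48% by the DMSO list, a ratio of 4.01. The FOS loci had 23.1% and 4.86%, a ratio of 4.75, and the BATF loci 16.9% and 5.19%, a ratio of 3.26. Interval numbers were 40 and 18 for JUN, 68 and 21 for FOS, and 47 and 19 for BATF, in the EnPGC-1 and DMSO lists. Jund and Junb made up most of the JUN coverage, and 1 list per treatment gives no error for a difference between families. Much of the coverage at these 2 loci lay nearer to other genes. Of the bases nearest to the member, Junb had 2628 with EnPGC-1 and 0 with DMSO, and Jund 5855 and 303. Ratios by family were not computed from such bases alone, so the order of the families holds for whole loci only.

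Fos, an immediate early gene (chromosome 12, 85473890 to 85477274), had 7 intervals and 4923 covered bases with EnPGC-1 and 4 intervals and 1709 bases with DMSO, a ratio of 2.88. An EnPGC-1 interval of 1308 bp with 3 summits ran from 22 to 1329 bp after the start and contained the DMSO interval of 583 bp, which ran from 291 to 873 bp after it. A second shared pair lay upstream, from -1819 to -1182 bp with EnPGC-1 and from -1917 to -1534 bp with DMSO. The remaining 5 EnPGC-1 and 2 DMSO intervals overlapped none of the other list. No other protein-coding gene lay in the locus.

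Fosb (chromosome 7, 19302696 to 19310118), which like Fos is induced by acute stimuli, had the largest ratio of the 10 members over the whole locus, 6.32, with 21 intervals and 13475 bases with EnPGC-1 and 4 intervals and 2131 bases with DMSO. Nearest to Fosb were 12 intervals with 6952 bases with EnPGC-1 and 2 with 793 with DMSO. The others lay nearer to Rtn2 or Ercc1. The rank depends on the locus: the ratio of nearest bases was 8.77, beside 19.3 at Jund. With flanks of 5 kb it was 7.56, beside 15.1 at Fosl1 and 8.12 at Fosl2. All 4 DMSO intervals were shared with the other list. In the gene body the EnPGC-1 list covered 2349 bases in 4 intervals and the DMSO list 389 in 1. The highest-scoring interval of the locus, from -4507 to -3920 bp of the start, was in the EnPGC-1 list alone, and 0.898% of that list scored as high or higher. With equal numbers of intervals the ratio at Fosb was 1.13.

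At Fosl2, the FRA-2 gene (chromosome 5, 32136472 to 32157840), 22 EnPGC-1 intervals covered 14361 bases and 6 DMSO intervals covered 2480. An EnPGC-1 interval of 2005 bp with 3 summits spanned the start, from -877 to 1127 bp, and covered all 300 bases of the promoter window shown above. The DMSO interval nearest to the start ended 2443 bp upstream. Inside the gene the EnPGC-1 list held 12 intervals and 6889 bases, and the DMSO list 2 intervals and 843 bases. All 6 DMSO intervals scored below the median of their list, so no ratio could be had from intervals at or above it. With equal numbers of intervals, 2368 bases were covered at Fosl2 with EnPGC-1 and 2480 with DMSO, so the order of the lists turned. This turn depends on how ties were cut. An EnPGC-1 interval of 759 bp in the gene had exactly the lowest score kept, 4.21274, and was left out because wider intervals went first. It is wider than the difference between the lists (-112 bases).

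Fosl1, the FRA-1 gene (chromosome 19, 5447698 to 5455938), had 18 intervals and 13492 bases with EnPGC-1 and 7 intervals and 3411 bases with DMSO. None of the DMSO intervals lay in the gene, where the EnPGC-1 list held 3 intervals and 1538 bases. The locus contains 4 other protein-coding genes, among them the cathepsin gene Ctsw, and 13 of the 18 EnPGC-1 intervals and all 7 DMSO intervals lay nearer to another gene than to Fosl1. Over the locus the ratio was 3.96. Of the covered bases, 4227 with EnPGC-1 and 0 with DMSO lay nearest to Fosl1.

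**Figure D2:**
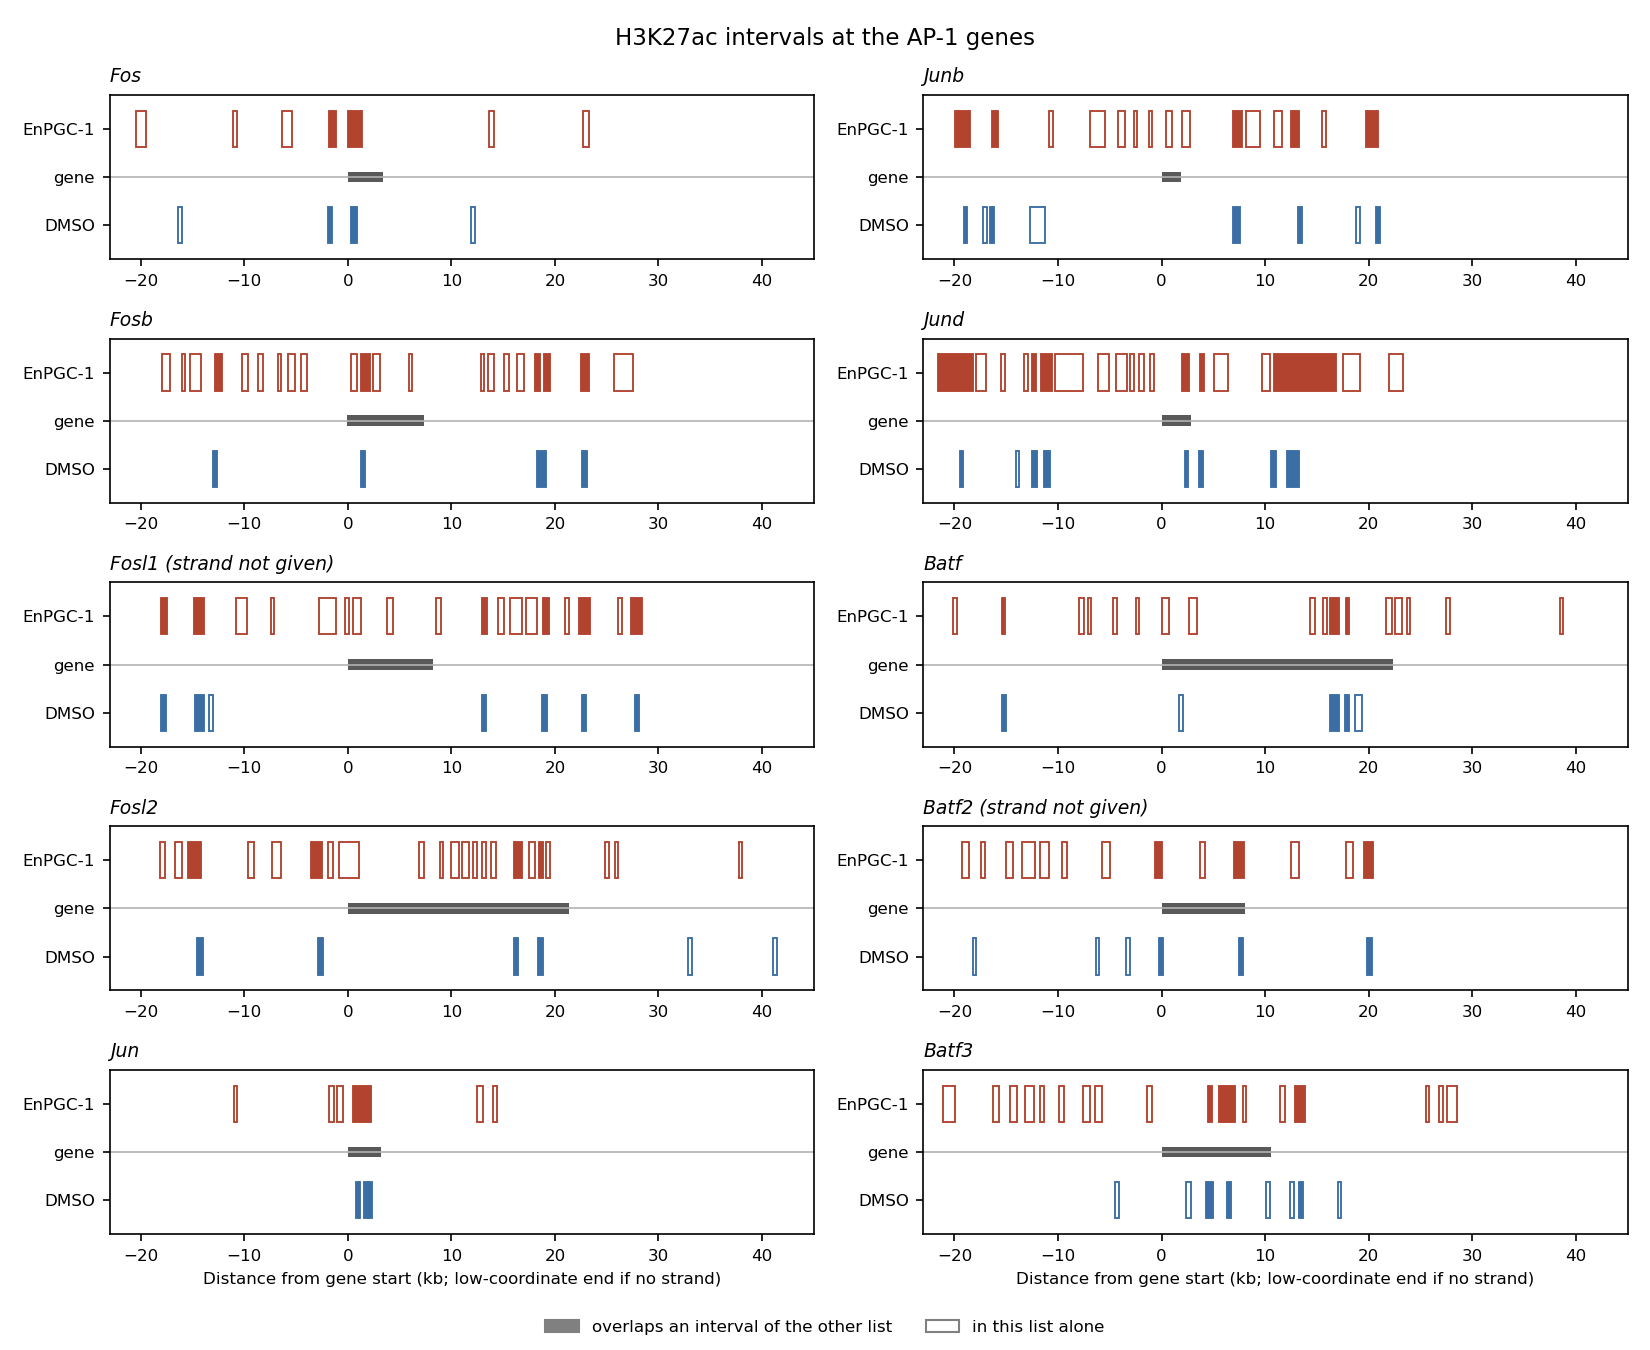
Intervals of the EnPGC-1 list (upper row of each panel) and of the DMSO list (lower row) at the 10 AP-1 genes, drawn to scale against distance from the gene start in kb, with the gene as a dark bar. Filled boxes overlap an interval of the other list and open boxes do not; most EnPGC-1 boxes are open (117 of 155) and most DMSO boxes are filled (39 of 58). Transcription runs to the right, except for Fosl1 and Batf2, which are drawn from the low-coordinate end.

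Jun (chromosome 4, 95049036 to 95052222), whose product is the main partner of FOS proteins, had the fewest intervals: 6 covering 4037 bases with EnPGC-1 and 2 covering 1001 bases with DMSO. The gene itself was densely marked, with 55.4% of its 3187 bases covered with EnPGC-1 and 31.4% with DMSO. A single EnPGC-1 interval of 1765 bp with 4 summits, from 516 to 2280 bp after the start, overlapped both DMSO intervals. A further EnPGC-1 interval lay upstream of the promoter window, from -1069 to -436 bp, with no DMSO counterpart. The highest-scoring EnPGC-1 interval lay 12463 to 13090 bp after the start, beyond the gene, and 1.55% of the list scored as high or higher. The ratio over the locus was 4.03, and 1.76 over the gene alone.

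Junb (chromosome 8, 84976909 to 84978748), a JUN gene that is strongly induced in activated T cells, had the smallest ratio, 2.68, with 15 intervals and 11737 bases with EnPGC-1 and 8 intervals and 4373 bases with DMSO. Its DMSO coverage of 10.5% was the highest of the members and lay at percentile 91.6 of all genes. None of the 8 DMSO intervals lay nearest to Junb, however. They lay nearer to Rnaseh2a, Prdx2 or Hook2, and the one nearest to the start began 6942 bp after it. The EnPGC-1 list had 5 intervals with 2628 bases nearest to Junb, including one from 432 to 963 bp after the start and one from -1216 to -882 bp. The highest-scoring DMSO interval, 1413 bp wide and from -12677 to -11265 bp of the start, lay nearer to Hook2, and overlapped no EnPGC-1 interval.

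Jund (chromosome 8, 70697739 to 70700616), the JUN gene known for steady expression in resting cells, had the densest EnPGC-1 coverage. Its 19 EnPGC-1 intervals covered 22641 bases and its 8 DMSO intervals 4198, a ratio of 5.39. The EnPGC-1 share of 52.8% lay at percentile 99.0 of all genes, and the DMSO share of 9.79% at 90.0. Wide blocks at the neighbours carried much of this. An EnPGC-1 interval of 6056 bp with 8 summits lay nearest to Iqcn, from 10834 to 16889 bp after the start, and overlapped DMSO intervals of 529 and 1181 bp. A second, of 3405 bp with 6 summits, lay nearest to Lsm4. Of the bases nearest to Jund, 5855 were covered with EnPGC-1 and 303 with DMSO. In the gene, 1 EnPGC-1 interval of 645 bp contained 1 DMSO interval of 303 bp. With equal numbers of intervals the ratio over the locus was 3.20.

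Batf (chromosome 12, 85686720 to 85709087), which encodes the BATF protein required for effector CD8+ T cell differentiation, had 17 intervals and 7556 bases with EnPGC-1 and 5 intervals and 2690 bases with DMSO, a ratio of 2.81. Its EnPGC-1 intervals were narrow, and at this member alone of the 10 the widest EnPGC-1 interval (836 bp) was narrower than the widest DMSO interval (913 bp). These 2 intervals lay at the same place within the gene, from 16306 to 17141 bp after the start with EnPGC-1 and from 16264 to 17176 bp with DMSO. An EnPGC-1 interval of 714 bp began 21 bp after the start, whereas the nearest DMSO interval ran from 1709 to 2082 bp after it and overlapped no EnPGC-1 interval. The order of the lists at Batf turned with the choice of intervals. With equal numbers, 2 EnPGC-1 intervals with 822 bases were left beside 5 DMSO intervals with 2690, a ratio of 0.306. With each list limited to scores at or above its own median, the ratio was 1.55.

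Batf3 (chromosome 1, 191098414 to 191108943), known for its role in cross-presenting dendritic cells, had 17 intervals and 10157 bases with EnPGC-1 and 8 intervals and 3369 bases with DMSO. The gene itself held 3 intervals and 2304 bases with EnPGC-1 and 4 intervals and 1869 bases with DMSO, a ratio of 1.23. The EnPGC-1 interval with the highest score of the locus ran from -1382 to -897 bp, just upstream of the start. The other list overlapped 3 of the 8 DMSO intervals. With equal numbers of intervals the ratio over the locus was 1.02.

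Batf2 (chromosome 19, 6164397 to 6172476), which can stand in for Batf3 in dendritic cells of mice, had 13 intervals and 9565 bases with EnPGC-1 and 6 intervals and 2298 bases with DMSO, a ratio of 4.16. Both lists marked the low-coordinate end of the gene, from 6163800 to 6164485 with EnPGC-1 and from 6164130 to 6164546 with DMSO. A second shared pair lay at the other end, from 6171389 to 6172317 with EnPGC-1 and from 6171872 to 6172248 with DMSO. All 3 EnPGC-1 intervals in the gene covered 1462 bases, and both DMSO intervals 527.

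The EnPGC-1 list marked all 8 gene starts within 1 kb and the DMSO list 2 of them. Few of these intervals reached the promoter windows of 300 bases. There the EnPGC-1 list covered 300 bases at Fosl2, 29 at Batf and 28 at Fos. It covered 0 at Fosb, Jun, Junb, Jund and Batf3, and the DMSO list covered 0 at all 8. Within 1 kb of the start, the EnPGC-1 list alone marked Fosb, Fosl2, Junb, Jund, Batf and Batf3, 6 of 8 members beside 36.8% of the 17274 genes with a start. Both lists marked Fos and Jun, 2 of 8 beside 30.5%, the DMSO list alone marked 0 beside 3.09%, and neither list marked 0 beside 29.6%. Covered bases within 1 kb were 979 with EnPGC-1 and 583 with DMSO at Fos, and 1050 and 174 at Jun. At Fosl2 they were 1878 with EnPGC-1 and 0 with DMSO, and at Batf 714 and 0. Batf3 was at the margin, with 104 bases with EnPGC-1 and 0 with DMSO. For Jund the table gives 1 start, the outermost of the gene. These counts changed with the window: within 2500 bp, 7 of the 8 were marked in both lists (39.5% of all genes) and Junb with EnPGC-1 only (33.9%), with 0 marked by the DMSO list only (2.38%). Within 5 kb, both lists marked 7 (48.7%) and the EnPGC-1 list alone 1 (30.2%), and within 500 bp 1 (24.6%) and 5 (37.7%). With scores at or above the median of each list, both lists marked 1 start (13.5%) and EnPGC-1 alone 5 (27.9%). At either gene end, which needs no strand, both lists marked 5 of the 10 members (39.4% of all genes), the EnPGC-1 list alone 5 (33.4%) and the DMSO list alone 0 (2.19%). With equal numbers of intervals, EnPGC-1 alone marked 2 starts, Junb and Batf3, beside 14.8% of genes. Both lists then still marked Fos and Jun, beside 15.3%, and the DMSO list alone 0 of 8, beside 18.2%.

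**Figure D3:**
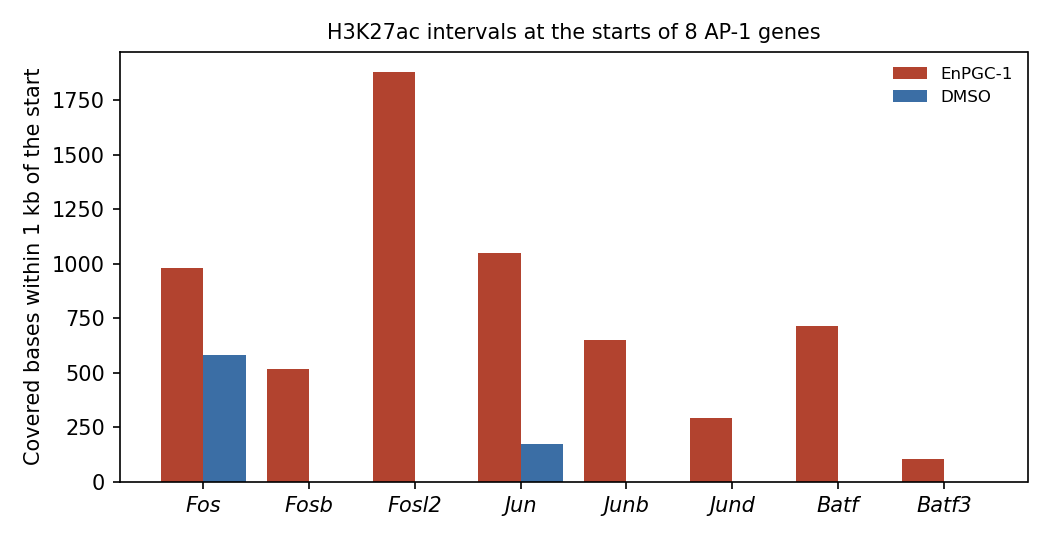
Bases covered by H3K27ac intervals within 1 kb on either side of the start of the 8 members with a start in the table, for the EnPGC-1 list (left bar) and the DMSO list (right bar), 1 list per treatment. The DMSO list has bases at Fos (583) and Jun (174) and 0 at the other 6.

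The smaller DMSO list lay mostly on EnPGC-1 intervals at the AP-1 genes, and most EnPGC-1 intervals had no DMSO counterpart. An overlap of 1 bp or more with the other list was found for 38 of the 155 EnPGC-1 intervals (24.5%, exact 95% binomial range 18.0 to 32.1), beside 23.1% of the whole list. It was found for 39 of the 58 DMSO intervals (67.2%, range 53.7 to 79.0), beside 73.7% of the whole list. These ranges cover counting error only. The shared part of the DMSO list was 16 of 21 at the FOS genes, 14 of 18 at the JUN genes and 9 of 19 at the BATF genes, with binomial ranges of 52.8% to 91.8%, 52.4% to 93.6% and 24.4% to 71.1%. These ranges overlap each other, which does not show that the families are alike. The BATF range ends below the 73.7% of the whole list. The ranges treat neighbouring intervals as independent, and no difference between families was tested. The shared EnPGC-1 intervals were wider than those in the EnPGC-1 list alone, with medians of 831 and 530 bp, and 698 and 461 bp in the whole list.

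Intervals at the AP-1 genes were wider than those of the whole list with EnPGC-1, and narrower with DMSO. Their median width was 600 bp with EnPGC-1 and 406 bp with DMSO, beside 499 and 431 bp in the whole lists. Widths of 1000 bp or more made up 19.4% of the EnPGC-1 intervals and 3.45% of the DMSO intervals at the members, and 14.2% and 4.39% of the whole lists. The authors' score, read as -log10 of a q-value, had a median of 3.26 in the EnPGC-1 list at the members, beside 3.64 in that whole list, and of 2.16 in the DMSO list at the members and in the whole list. The highest scores at the members were 8.98 with EnPGC-1 and 4.52 with DMSO, whereas the lists reached 541 and 179. Those highest scores were reached or passed by 0.898% of the EnPGC-1 list and 4.51% of the DMSO list.

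Summed over the members, the ratio was smaller in the genes than around them, but single members differed. Within the 10 gene bodies, 25.5% of bases were covered with EnPGC-1 and 8.76% with DMSO, a ratio of 2.91. In the flanks of 20 kb the shares were 22.3% and 4.96%, a ratio of 4.49. Over all genes the ratio was 3.77 in bodies and 3.82 in flanks. The ratio was lower in the gene than in the flanks at 6 members and higher at 1, Fosl2, with 8.17 in the gene and 4.56 in the flanks. The share of all genes with a lower ratio in the gene was not computed, so these counts have no background beside them. No such comparison could be made for Fosl1 and Junb, with 0 DMSO bases in the gene, or for Jun, with 0 in the flanks. The median ratio of 2.19 in genes is over the 8 members with DMSO bases there. For 57 of the 155 EnPGC-1 and 26 of the 58 DMSO intervals another gene lay nearer than the member. With bases nearer to another gene left out, an alternative added after the values were seen, 9 of the 10 members still had at least 2 times the bases in the EnPGC-1 list, beside 79.2% of all genes under the same rule, and Batf3 had a ratio of 1.95.

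**Figure D4:**
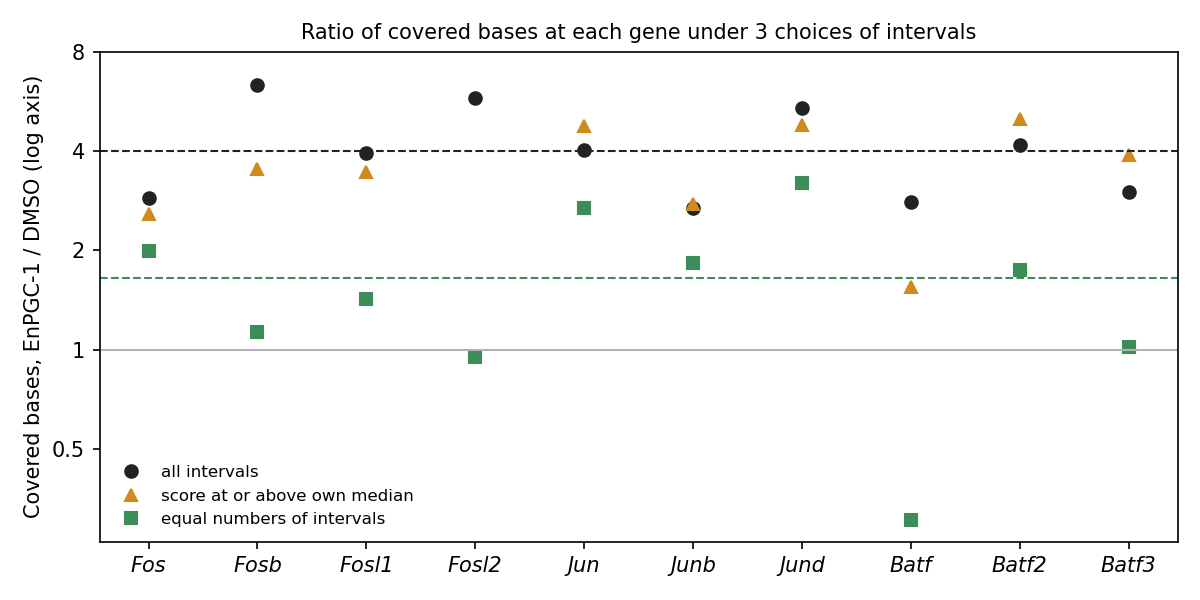
Ratio of covered bases, EnPGC-1 over DMSO, at each AP-1 gene on a log axis, from all intervals (circles), from intervals at or above the median score of their own list (triangles) and with equal numbers of intervals (squares). Dashed lines are the ratios of the whole lists, 4.00 for all intervals and 1.65 for equal numbers. Fosl2 has no triangle because no DMSO interval was left, and with equal numbers Fosl2 (0.955) and Batf (0.306) lie below 1. The place of Fosl2 below 1 depends on how ties at the lowest score kept were cut.

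Most genes around AP-1 in the pathway also had more covered bases with EnPGC-1, as 86.6% of all genes had at least 2 times as many. Of 15 other leucine zipper partners and relatives, 11 had at least 2 times the bases in the EnPGC-1 list, with a median ratio of 3.13. The same held for 19 of 20 genes of the MAP kinase route and its regulators, with a median of 4.04, and for 7 of 8 cooperating factors, with 3.22. It also held for 14 of 16 AP-1 target genes of T cells, with a median of 4.50 over the 8 that had DMSO bases. Some of these 14 targets therefore had 0 DMSO bases. The targets were sparsely covered, with a median of 3.64% with EnPGC-1 and 0.295% with DMSO, beside 8.37% and 1.99% over all genes. In none of these 4 groups of genes did a gene have more bases with DMSO, whose whole list covers 41.3 Mb beside 165 Mb with EnPGC-1. The share of all genes with more bases with DMSO was not computed for all intervals. Among partners, Bach2, a repressor that competes at AP-1 sites, had 37423 bases with EnPGC-1 and 10319 with DMSO. Mafk, a small MAF gene, had 26017 and 8322, and Creb1, the gene of the cAMP response element binding protein, had 1755 and 1235. Of the kinases, Map2k2 (MEK2) had 28926 and 7948, Map3k1 (MEKK1) 21335 and 3930, and Map3k7 (TAK1) 1932 and 599. Nfatc2 and Nfatc1, which encode the NFAT partners of AP-1, had 76708 and 18249 bases and 58537 and 18487 bases in the EnPGC-1 and DMSO lists. Irf4, which encodes the partner of BATF, had 5613 and 3155, the smallest difference among the cooperating factors. Among targets, the costimulatory receptor gene Tnfrsf9 had 20826 bases with EnPGC-1 and 2944 with DMSO, Tnf had 12165 and 999, and the activation marker gene Cd69 was listed at 0 in both.

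The labelled cell type was checked at marker loci of the same definition. All 9 T cell markers, Cd8a, Cd8b1 and Cd3e among them, had intervals in both lists, with a median covered share of 11.7% with EnPGC-1 (4.69% to 29.1%) and 1.80% with DMSO (0.796% to 13.7%). Markers of some other cell types had higher medians than the T cell markers. The 5 B cell markers, of which 5 and 4 were marked, had a median of 27.9% with EnPGC-1 (0.684% to 34.1%) and 4.43% with DMSO (0% to 10.3%). The 3 CD4 and Treg markers, all marked in both lists, had 20.3% with EnPGC-1 (18.6% to 32.7%) and 3.71% with DMSO (3.42% to 5.58%). The 5 myeloid markers, of which 5 and 4 were marked, had 8.73% with EnPGC-1 (2.01% to 24.99%) and 2.04% with DMSO (0% to 10.2%). The 2 NK markers, of which 2 and 1 were marked, had 3.19% with EnPGC-1 (1.66% to 4.72%) and 0.817% with DMSO (0% to 1.63%). The part of other cell types in the values at the AP-1 genes was not tested.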

How the data were processed

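Per the submitters' processing notes, the tools were ChIPseeker 11.16.1, MACS2 2.2.2.20160309, Picard 0.118, Bowtie 1.1.2 and Trimmomatic 0.38, and the build was mm10. Their roles, parameters, the control and any pooling of samples were not given in the sources used here, nor was whether samples came from separate animals or cultures. The authors deposited 1 list of peaks per treatment with a score, read as -log10 of a q-value because the lowest scores (1.31 in both) lie just above 1.30, which is -log10 of 0.05. Entries repeating 1 interval were combined with their highest score (329623 EnPGC-1 entries into 253423 intervals, 84538 DMSO entries into 81522), and the repeats are called summits. Genes, coordinates and starts came from RefSeq tables of GRCm38.p6, which hold no exons. Covered bases are the union of intervals in a window. Shared intervals overlap by 1 bp. Coordinates are 1-based. The member genes and other lists were chosen with earlier results of these data known. Named genes were all 10 members with the highest-scoring and widest interval per list, and of each other list the 2 genes with the largest and the 1 with the smallest difference in covered bases. Alternatives were flanks of 0, 5 or 50 kb, start windows of 500 bp, 2500 bp or 5 kb, stricter scores, equal numbers of intervals (EnPGC-1 scores from 4.21 upwards, wider first among ties), widths of 500 bp or more, merging within 1000 bp, other overlap rules, deposited entries and, for interval counts, the nearest gene. The nearest gene for covered bases, and either gene end for starts, were added after the values were seen. Calculations used Python 3.11.15, pandas 2.3.3 and scipy 1.17.1. The counting of bases and intervals in a window and the overlap of lists were tested on simulated intervals, and the other steps were not.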

Additional observations from a re-analysis of the deposited data

How the results depend on the processing

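Results that moved did so mainly with the choice of intervals and of the window around starts. EnPGC-1 intervals were 72.8% of all intervals at the AP-1 genes, beside 75.7% of those in the whole lists. That share was 44.8% with equal numbers of intervals (50% of the whole lists by construction), 86.0% with widths of 500 bp or more (whole lists 81.0%) and 64.8% after merging within 1000 bp (whole lists 71.7%), and stayed within its counting interval (66.3 to 78.6) for the other 5 alternatives. The median ratio of covered bases, 3.99, was 1.59 with equal numbers, 7.69 with widths of 500 bp or more and 2.19 in gene bodies alone. The 10 members with at least 2 times the bases became 2 with equal numbers, where the ratio turned below 1 at Fosl2 (0.955) and Batf (0.306). The count of 2 and the turn at Fosl2 depend on how ties at the lowest score kept were cut. Starts marked in both lists, 2 within 1 kb, were 1 within 500 bp, 7 within 2500 bp, 7 within 5 kb, 1 with scores at or above the median of the list and 5 at either gene end. Starts that only the EnPGC-1 list marked, 6 within 1 kb, were 1 within 2500 bp, 1 within 5 kb and 2 with equal numbers. Counting intervals within 500 bp of each other as shared gave 32.3% of EnPGC-1 intervals, against 24.5%. Equal numbers remove EnPGC-1 intervals of low score and no DMSO interval. The cause of the other shifts was not tested. A share was taken as moved when it left its counting interval, and a ratio or a count of members when it changed by more than 1.5 times. By these wide limits 28 of 44 recomputed summary values stayed and 16 moved. The median ratio of 2.81 with flanks of 5 kb is among those that stayed. No ratio could be had where the DMSO list was at 0, as at Fosl1 and Junb in the gene or nearest to it. No paired analysis was possible because each treatment has 1 list, with no value per sample. Depth is unknown and cannot be matched between the lists.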

Other observations

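Members of the wider leucine zipper family sit beside AP-1 genes, and both neighbourhoods were described after the values were seen. The 209 kb on chromosome 12 between Fos and Batf, which contain Jdp2, a gene for a repressor that pairs with JUN proteins, held 56 EnPGC-1 intervals covering 17.2% of bases and 18 DMSO intervals covering 3.76%, a ratio of covered bases of 4.56. Jdp2 with 20 kb on each side had 17434 bases with EnPGC-1 and 4535 with DMSO. The 61.4 kb on chromosome 1 between Batf3 and Atf3, a stress-induced gene of the same family, held 15 EnPGC-1 intervals covering 15.6% and 9 DMSO intervals covering 6.36%, a ratio of 2.46. Atf3 with 20 kb on each side had 9254 bases with EnPGC-1 and 5078 with DMSO, a ratio of 1.82. All 10 AP-1 members reached 2 times, as did 86.6% of all genes, but with equal numbers of intervals 2 members did. That lower count depends on how ties at the lowest score kept were cut, and Fos was just below it at 1.99. No test of these differences was possible with 1 list per treatment.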
